A study of Bos taurus with 14 samples.

Results

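Trophectoderm is the outer cell layer of the mammalian blastocyst and gives rise to the placenta, while the inner cells give rise to the embryo and to embryonic stem cells. A small group of transcription factors is known for its part in this first split of lineages, mostly from work in the mouse. There TEAD4, held active by the cofactors YAP1 and WWTR1 when Hippo signalling is low, acts upstream of the homeobox gene CDX2 and the zinc finger gene GATA3. GATA2, TFAP2A and TFAP2C are also trophoblast regulators, and ELF5 marks the stem cells of the later mouse trophoblast. The 7 genes CDX2, GATA2, GATA3, TFAP2A, TFAP2C, TEAD4 and ELF5 were looked up by symbol, and all 7 were found, among 23159 features in one set of files and 24616 in the other.

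The series holds 14 cattle RNA-seq libraries and sets bovine embryonic stem cells (bESC), which its title calls primed, against embryo and somatic controls. The bESC lines A and B were derived from blastocysts and cultured on mouse embryonic fibroblast feeders in CTFR medium, a base without growth factors to which human FGF2 and IWR1, an inhibitor of canonical WNT signalling, were added. Each line gave 5 libraries, 1 per passage, at P10, P13, P23, P35 and P45 for line A and at P10, P12, P24, P35 and P46 for line B. The controls were 2 pools of 10 whole blastocysts, titled in vivo, and 2 lines of skin fibroblasts. Strain, sex and animal were not given in the sources used here, nor was it stated whether feeder cells were removed before RNA was taken. Both bESC lines are single lines sampled repeatedly, so their libraries do not stand for separate embryos.

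Values are RPKM (read counts scaled to gene length and to library total), which can be compared between genes. The P10, blastocyst and fibroblast libraries share 1 set of files and the 8 later bESC libraries another, each with its own feature list, so P10 and later levels were set side by side without a test. In the blastocyst pools 65.8% and 64.0% of all RPKM fell on 2 features, against 2.1% to 3.4% in the other 12 libraries, so most other genes stand low in the pools. The median gene was 1.43 log2 units higher in P10 bESC than in blastocysts, 0.23 higher in P10 bESC than in fibroblasts, and stood at a difference of -1.15 between blastocysts and fibroblasts. Differences are therefore given as fitted and, for part of them, also relative to the median gene. The rest are to be read against these median differences. Read depth is unknown for the first set, and even GAPDH, which every cell uses, has 0 in each of the 14 files; zeros are for that reason described only as listed. Markers mostly followed the labelled cell types. SOX2 stood at 151 and 148 RPKM in P10 bESC, 2.12 and 3.18 RPKM in blastocysts and 0.257 and 1.81 RPKM in fibroblasts. NANOG overlapped between P10 bESC (4.49 and 2.15 RPKM) and blastocysts (0.549 and 4.57 RPKM), and was listed at 0 in fibroblasts. Of 6 pluripotency markers tested, 5 were called higher in P10 bESC than in blastocysts, beside 73% of all tested genes. POU5F1 stood at 223 and 151 RPKM in P10 bESC, 48.6 and 38.2 RPKM in blastocysts and 0 in both fibroblast lines. COL1A1 stood at 36.5 and 59.3 RPKM in P10 bESC, 0.089 and 0.280 RPKM in blastocysts and 1564 and 1706 RPKM in fibroblasts.

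Of the 7 genes, 6 lay under 1 RPKM in every one of the 10 bESC libraries, and TEAD4 was the exception. In both blastocyst pools 5 genes reached 1 RPKM (CDX2, GATA2, GATA3, TFAP2C and TEAD4), and in both fibroblast lines 4 did (GATA2, TFAP2A, TFAP2C and TEAD4). Summed over the 7 genes, the level was 5.84 and 5.49 RPKM in P10 bESC, 5.25 to 11.3 RPKM in later bESC, 78.5 and 70.0 RPKM in blastocysts and 27.5 and 41.1 RPKM in fibroblasts. TEAD4 made up most of the bESC sum in every library.

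**Figure D1:**
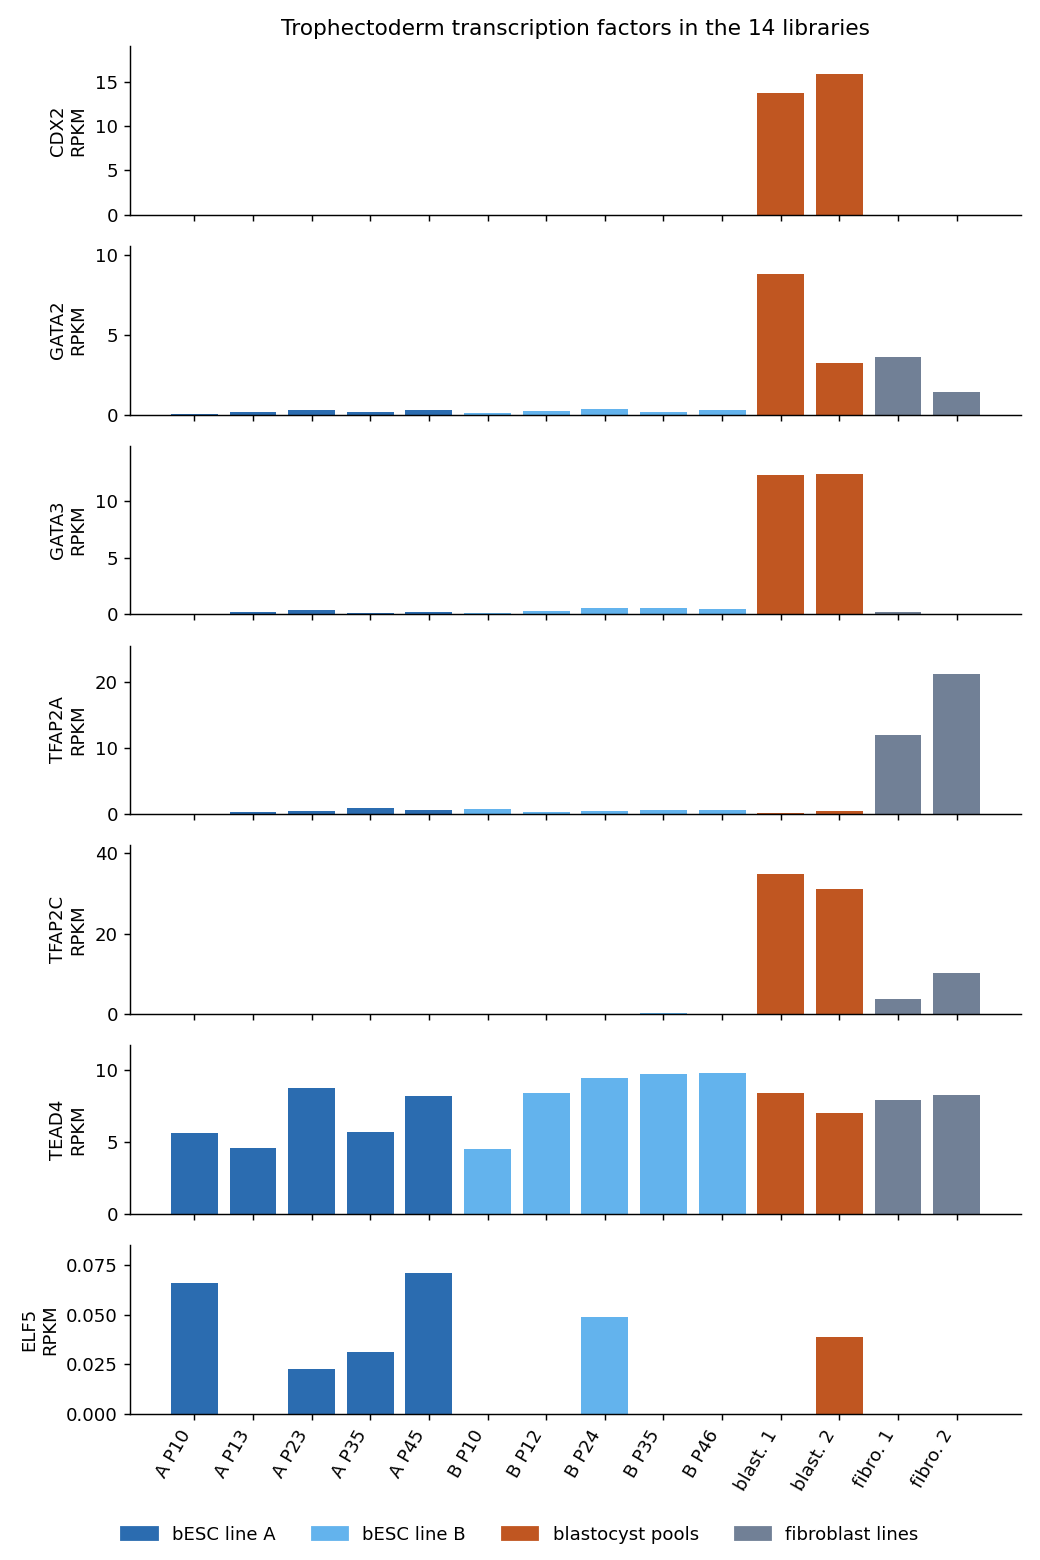
Level of each of the 7 genes (RPKM, own linear scale per gene, from 0) in each library, with bESC line A, bESC line B, blastocyst pools and fibroblast lines from left to right. CDX2 bars stand in the blastocyst pools alone, at 13.8 and 15.9 RPKM, TFAP2A is highest in fibroblasts, and TEAD4 lies between 4.48 and 9.75 RPKM throughout.

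CDX2, which in the mouse sustains trophectoderm identity and holds back POU5F1, was listed at 0 in all 10 bESC libraries, at 13.8 and 15.9 RPKM in the 2 blastocyst pools and at 0 in both fibroblast lines. The blastocyst pools were the only libraries with any CDX2 signal. By RPKM, CDX2 ranked above 92.8% and 93.4% of features in the pools. It was lower in P10 bESC than in blastocysts (adjusted p = 1.1e-05, limma) and higher in blastocysts than in fibroblasts (adjusted p = 9.63e-06, limma), with no fold given against a group listed at 0. CDX2 passed the filter on low values (1 RPKM or more in at least 2 libraries) only through the blastocyst pools. The P10 bESC and fibroblast values, all listed at 0, added no spread to the fit. These p-values therefore support no further statement. In bulk RNA, fewer cells of a type and less RNA per cell cannot be told apart, which bears on every blastocyst value here, since the pools mix trophectoderm, epiblast and hypoblast.

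GATA3, a zinc finger factor that acts beside CDX2 in mouse trophectoderm, stood at 0.064 and 0.138 RPKM in P10 bESC, 12.3 and 12.4 RPKM in blastocysts and 0.188 and 0 RPKM in fibroblasts. The pools agreed closely and lay far above every other library. The log2(RPKM + 1) difference between P10 bESC and blastocysts was -3.60 ± 0.18 (SE, n = 2 each, adjusted p = 1.34e-05, limma), or -5.03 relative to the median gene. Between blastocysts and fibroblasts it was 3.62 ± 0.18 (adjusted p = 1.33e-05), while P10 bESC and fibroblasts differed by 0.01 ± 0.18 (adjusted p = 0.956). Like CDX2, GATA3 passed the filter on low values only through the blastocyst pools. In later bESC, GATA3 stood at 0.171, 0.399, 0.141 and 0.231 RPKM in line A at P13, P23, P35 and P45, and at 0.319, 0.538, 0.600 and 0.445 RPKM in line B at P12, P24, P35 and P46. All 8 values were above both P10 values and below 1 RPKM.

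GATA2, a relative of GATA3 active in trophoblast and in blood cells, was less even between the pools. It stood at 0.043 and 0.080 RPKM in P10 bESC, 8.84 and 3.26 RPKM in blastocysts and 3.61 and 1.42 RPKM in fibroblasts. The P10 libraries lay below all 4 control libraries, while blastocyst and fibroblast values overlapped. GATA2 was lower in P10 bESC than in blastocysts by a log2 difference of -2.61 ± 0.45 (adjusted p = 0.00163, limma; -4.04 relative to the median gene). It was also lower in P10 bESC than in fibroblasts, at -1.65 ± 0.45 (adjusted p = 0.0198). That second call was lost without the P10 library of line A (adjusted p = 0.0801), without that of line B (0.0682) and without fibroblast line 1 (0.0964), and with no filter on low values (0.0528). Blastocysts and fibroblasts differed by 0.95 ± 0.45 (adjusted p = 0.0974), a difference that passed the threshold under each of 3 other scalings, at 2.19 to 2.27 (adjusted p = 0.00304 to 0.0049). Single libraries moved it, to 0.35 without blastocyst pool 1 (adjusted p = 0.499), 1.56 without pool 2 (0.0227) and 1.42 without fibroblast line 1 (0.0428), and the P10 difference from blastocysts was -2.01 without pool 1 and -3.21 without pool 2. In later bESC, GATA2 stood at 0.170, 0.285, 0.173 and 0.296 RPKM in line A at P13, P23, P35 and P45, and at 0.249, 0.326, 0.190 and 0.306 RPKM in line B at P12, P24, P35 and P46. The 3 lowest were line A at P13 and P35 and line B at P35.

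TFAP2C, an AP-2 factor needed for the mouse trophoblast and present in early germ cells, had the highest blastocyst level of the 7 genes. It stood at 0.031 and 0.025 RPKM in P10 bESC, 34.9 and 31.0 RPKM in blastocysts and 3.79 and 10.1 RPKM in fibroblasts. The 3 groups did not overlap and ran in the order bESC, fibroblasts, blastocysts. The difference was -5.04 ± 0.38 between P10 bESC and blastocysts (adjusted p = 4.33e-05, limma; -6.47 relative to the median gene). Between P10 bESC and fibroblasts it was -2.83 ± 0.38 (adjusted p = 0.00108), and between blastocysts and fibroblasts 2.22 ± 0.38 (adjusted p = 0.00176). Without fibroblast line 1 these last differences were -3.43 and 1.61, and without line 2 they were -2.22 and 2.82, all still called. In later bESC, TFAP2C stood at 0.0408, 0.0847, 0.0719 and 0.0550 RPKM in line A at P13, P23, P35 and P45, and at 0.0696, 0.0680, 0.174 and 0.110 RPKM in line B at P12, P24, P35 and P46. Line B at P35 was the highest bESC library for TFAP2C.

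TFAP2A, the AP-2 relative known from epidermis and neural crest as well as trophoblast, had a different order. It stood at 0.047 and 0.762 RPKM in P10 bESC, 0.228 and 0.425 RPKM in blastocysts and 12.0 and 21.3 RPKM in fibroblasts. P10 bESC and blastocysts overlapped, and both lay far below the fibroblast lines. The difference from fibroblasts was -3.65 ± 0.35 in P10 bESC (adjusted p = 0.000266, limma) and -3.69 ± 0.35 in blastocysts (adjusted p = 0.000114). TFAP2A passed the filter on low values only through the fibroblast lines. P10 bESC and blastocysts differed by 0.04 ± 0.35 (adjusted p = 0.926), or -1.39 relative to the median gene, with the sign depending on the scaling. Among the AP-2 genes TFAP2C made up 98.2% and 98.6% of the family's summed RPKM in blastocysts and 23.8% and 32.2% in fibroblasts.

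The 2 P10 libraries stood apart in TFAP2A, which was 0.047 RPKM in line A and 0.762 RPKM in line B. The 5 of 6 neural crest and melanocyte markers present in those files summed to 3.85 RPKM in line A and 18.0 RPKM in line B, with TFAP2B listed at 0 in line A and none at 0 in line B. PMEL made up most of each sum, at 2.45 RPKM in line A and 14.3 RPKM in line B. The 6 keratinocyte markers summed to 0.501 RPKM in line A and 1.1 RPKM in line B. All 8 fibroblast markers were above 0 in both, with sums of 108 RPKM in line A and 216 RPKM in line B. The part of these markers in the TFAP2A difference was not tested. In later bESC, TFAP2A stood at 0.301, 0.441, 0.890 and 0.591 RPKM in line A at P13, P23, P35 and P45, and at 0.363, 0.529, 0.685 and 0.658 RPKM in line B at P12, P24, P35 and P46. Among later passages P35 was the highest and the first the lowest in both lines, although P35 and P46 were close in line B. Line B at P10 stood above all of its later values.

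TEAD4, the DNA-binding partner of YAP1 and WWTR1 that starts the trophectoderm programme in the mouse, was at 4 RPKM or more in all 14 libraries. It stood at 5.59 and 4.48 RPKM in P10 bESC, 8.40 and 6.99 RPKM in blastocysts and 7.89 and 8.27 RPKM in fibroblasts. Both P10 values lay below all 4 control values. The difference was -0.53 ± 0.20 between P10 bESC and blastocysts (adjusted p = 0.0463, limma; -1.96 relative to the median gene) and -0.60 ± 0.20 between P10 bESC and fibroblasts (adjusted p = 0.0423; -0.83 relative to the median gene). Both calls were lost when any 1 of the 6 libraries was left out, with adjusted p of 0.0509 to 0.209 against blastocysts and 0.0613 to 0.173 against fibroblasts, with the letter A or B as a block (0.0563 and 0.0532), and with a pseudocount of 0.1 RPKM (0.0526 and 0.0524). With quantile, median-of-ratios and top-2-removed scaling the difference from blastocysts was larger and stayed called, at -2.12, -2.10 and -1.78 (adjusted p = 0.000219, 0.000186 and 0.000483), while that from fibroblasts was -0.84, -0.76 and -0.39 (adjusted p = 0.0161, 0.0197 and 0.172). Blastocysts and fibroblasts differed by -0.07 ± 0.20 (adjusted p = 0.792), but the difference was 1.09 when set against the median gene, and 1.28 to 1.39 under 3 other scalings (adjusted p = 0.00116 to 0.00198).

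ELF5, a marker of mouse trophoblast stem cells, was at or near 0 everywhere. It stood at 0.066 and 0 RPKM in P10 bESC, 0 and 0.039 RPKM in blastocysts and 0 in both fibroblast lines. In later bESC it was listed at 0, 0.0228, 0.0310 and 0.0710 RPKM in line A at P13, P23, P35 and P45, and at 0 in line B except for 0.0488 RPKM at P24. ELF5 never reached the 1 RPKM in 2 libraries required for a test, and its blastocyst values did not stand apart from those of the other groups.

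Counted over the list, 6 of 7 genes passed the filter on low values in the first set. Of these 6, none was called higher and 5 were called lower in P10 bESC than in blastocysts, beside 73% of all tested genes called higher and 7.33% called lower. The median over the 6 genes was -3.10, against 1.43 for all tested genes. CDX2 and GATA3 entered the test only through the blastocyst pools and TFAP2A only through the fibroblasts, so these counts describe the genes and support no further statement. Against fibroblasts, none was higher and 4 of 6 were lower in P10 bESC (GATA2, TFAP2A, TFAP2C and TEAD4), beside 35.4% of all tested genes higher and 21.9% lower, with a median of -1.12 against 0.23. Between blastocysts and fibroblasts, 3 of 6 were higher in blastocysts (CDX2, GATA3 and TFAP2C) and 1 was lower (TFAP2A), beside 11% of all tested genes higher and 63.4% lower, with a median of 1.58 against -1.15. Under the other scalings the splits of all genes shifted, to 3508 higher and 3546 lower (quantile), 4050 higher and 3495 lower (median-of-ratios) or 5149 higher and 2609 lower (top 2 features removed) in P10 bESC against blastocysts. In P10 bESC against fibroblasts they were 3348 higher and 2947 lower with quantile scaling, 3021 and 2908 with median-of-ratios scaling, and 4511 and 1933 with the top 2 features removed. In blastocysts against fibroblasts they were 3861 higher and 3580 lower with quantile scaling, 3731 and 4176 with median-of-ratios scaling, and 3777 and 4071 with the top 2 features removed.

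Across later passages only TEAD4 was abundant enough to test. It stood at 4.57, 8.74, 5.66 and 8.16 RPKM in line A at P13, P23, P35 and P45, and at 8.36, 9.46, 9.68 and 9.75 RPKM in line B at P12, P24, P35 and P46. At P13 and P35 line A lay below every line B library, while its P23 and P45 values lay within or just under the line B range. TEAD4 averaged 6.78 ± 1.99 RPKM in line A and 9.31 ± 0.645 RPKM in line B (SD, n = 4 each), a log2 difference of -0.44 ± 0.16 (adjusted p = 0.734, limma) that did not pass. With matched passage stages as a block it was -0.44 ± 0.13 (adjusted p = 0.52). Of 12785 genes, 0.0156% were called lower in line A and 0% higher, which was 2 genes (ULBP3 and SYCP3, named after their values were seen), or 5 with the stage block, while 755 had an unadjusted p under 0.05.

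No gene, TEAD4 included, was called for a change with passage in the limma fit (0% of 12785, 494 at an unadjusted p under 0.05). The TEAD4 slope was 0.10 ± 0.07 log2 units per 10 passages (adjusted p = 0.961), and the slopes of line A and line B differed by 0.08 ± 0.14 (adjusted p = 1, with 0% of genes called and 83 at an unadjusted p under 0.05). With no filter and a pseudocount of 0.1 RPKM, added after the low values were seen, GATA3 was lower in line A than in line B by -0.81 ± 0.29 (adjusted p = 0.782, limma). In the same fit TFAP2A had a slope of 0.26 ± 0.10 per 10 passages (adjusted p = 0.968, limma). Neither passed the adjustment.

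**Figure D2:**
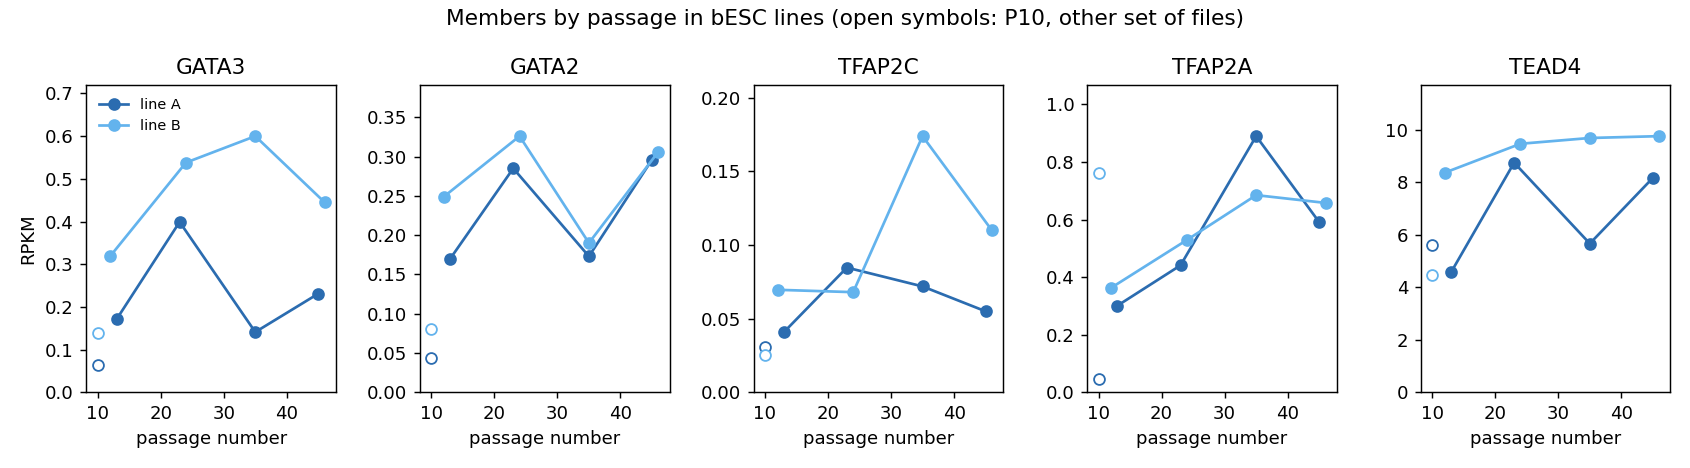
Level (RPKM, linear axis from 0, own scale per gene) against passage number in bESC line A and line B, with filled joined points for later passages and open points for P10, which comes from the other set of files. GATA3 and TEAD4 lie higher in line B at each matched later stage. Among later passages TFAP2A is highest at P35 in both lines, at 0.890 RPKM in line A and 0.685 RPKM in line B, where P46 is close at 0.658 RPKM.

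How few reads lie behind the low values can be read from the later files, whose RPKM carry enough digits to recover whole-number proportions between libraries. Relative depth was taken from the commonest ratio among low genes, and proportions were called whole to within 0.02. The smallest whole numbers that met this were 0, 1, 1 and 3 for ELF5 in line A at P13, P23, P35 and P45, and 0, 2, 0 and 0 in line B at P12, P24, P35 and P46. For TFAP2C they were 4, 8, 5 and 5 in line A and 7, 6, 17 and 10 in line B. The corresponding TEAD4 numbers ran from 198 to 476. Read counts could be these numbers or multiples of them. For GATA3 they ran from 7 (line A at P35) to 42 (line B at P35), for GATA2 from 13 (line A at P35) to 31 (line B at P24), and for TFAP2A from 29 to 66. If the read counts are these numbers, the TFAP2C and ELF5 values of later bESC rest on few reads each. The order of GATA2 and GATA3 values between libraries then rests on small counts too. Relative depth ran from 0.71 to 1.03 of line A at P13.

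The relatives of the 7 genes showed which family members the cells held. TEAD2, another DNA-binding partner of YAP1, stood at 148 and 131 RPKM in P10 bESC, 1.82 and 1.06 RPKM in blastocysts and 17.2 and 17.9 RPKM in fibroblasts. It was higher in P10 bESC than in blastocysts by 5.86 ± 0.21 (adjusted p = 7.91e-06, limma; 4.43 relative to the median gene) and higher than in fibroblasts by 2.92 ± 0.21 (adjusted p = 8.99e-05). In later bESC it held between 106 and 149 RPKM. TEAD4 therefore made up 2.91% and 2.60% of summed TEAD RPKM in P10 bESC, 2.38% to 6.35% in later bESC, 26.7% and 28.8% in blastocysts and 12.0% and 9.79% in fibroblasts. The share of TEAD2 was 77.0% and 75.8% in P10 bESC, 5.80% and 4.37% in blastocysts and 26.1% and 21.2% in fibroblasts.

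**Figure D3:**
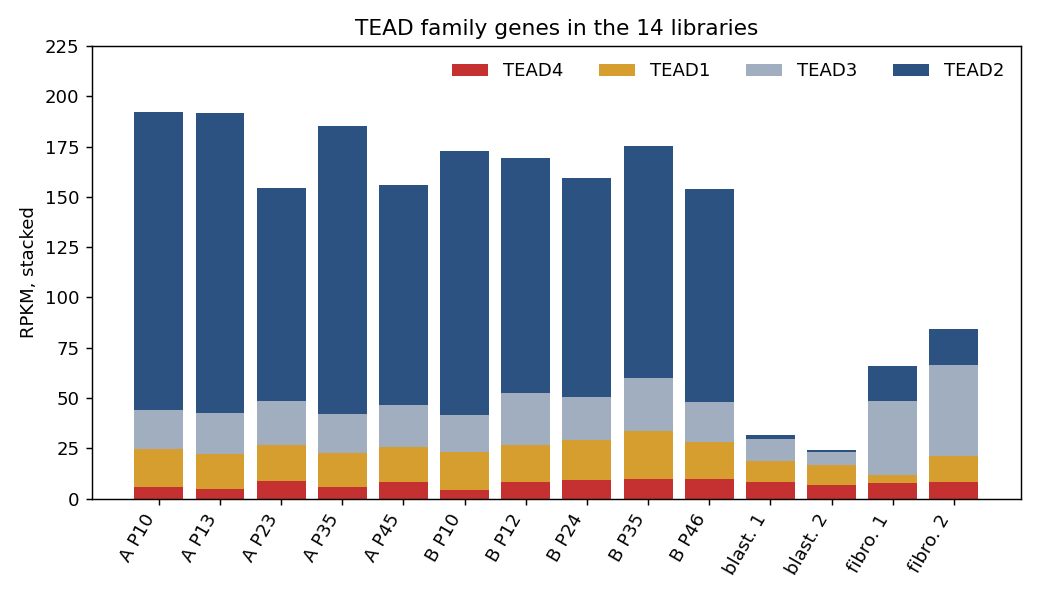
Stacked RPKM of TEAD4, TEAD1, TEAD3 and TEAD2 (bottom to top) in each library, with bESC lines left of the controls. TEAD2 takes most of every bESC bar, while the TEAD4 segment lies between 4.48 and 9.75 RPKM in all groups.

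TEAD3 was lower in P10 bESC than in fibroblasts, at -1.06 ± 0.25 (adjusted p = 0.0113), a call lost without line B (0.0525) or fibroblast line 2 (0.0592). It was 1.07 ± 0.25 higher in P10 bESC than in blastocysts (adjusted p = 0.00675), although this second difference was -0.36 relative to the median gene and turned negative under 3 other scalings. TEAD1 stood at 19.0 and 18.8 RPKM in P10 bESC, 10.3 and 9.63 RPKM in blastocysts and 3.99 and 13.0 RPKM in fibroblasts. GATA6, a hypoblast factor, stood at 0.157 and 0.095 RPKM in P10 bESC, 13.8 and 16.5 RPKM in blastocysts and 0 in both fibroblast lines, and was lower in P10 bESC than in blastocysts by -3.84 ± 0.18 (adjusted p = 1.2e-05, limma). The 7 hypoblast markers summed to 1.59 and 2.63 RPKM in P10 bESC, 30.5 and 39.8 RPKM in blastocysts and 49.4 and 65.8 RPKM in fibroblasts, where PDGFRA was nearly all of the sum. Their part in the GATA2 and GATA3 levels was not tested. ELF4, an ETS factor related to ELF5, was lower in P10 bESC than in blastocysts by -2.26 ± 0.24 (adjusted p = 0.000173) and than in fibroblasts by -2.95 ± 0.24 (adjusted p = 0.000148), and ELF2 stood between 12.5 and 27.0 RPKM in every library. Of the 17 relatives 7 were tested, of which GATA6 passed the filter only through the blastocyst pools. In P10 bESC against blastocysts 2 were higher and 3 lower, beside 73% and 7.33% of all tested genes (median -0.38, or -1.80 relative to the median gene). Against fibroblasts 2 were higher and 3 lower in P10 bESC, beside 35.4% and 21.9% (median 0.17). In blastocysts against fibroblasts 2 were higher and 3 lower, beside 11% and 63.4% (median -0.30, or 0.86 relative to the median gene).

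Hippo pathway genes set the activity of the TEAD proteins; YAP1 itself is not analysed here. WWTR1, the TEAD cofactor also called TAZ, stood at 4.14 and 8.72 RPKM in P10 bESC, 22.1 and 23.7 RPKM in blastocysts and 17.8 and 32.1 RPKM in fibroblasts, and was lower in P10 bESC than in blastocysts by -1.76 ± 0.38 (adjusted p = 0.00432, limma) and than in fibroblasts by -1.82 ± 0.38 (adjusted p = 0.0065). VGLL1, a TEAD cofactor expressed in placenta, stood at 1.14 and 1.40 RPKM in P10 bESC, 4.54 and 4.72 RPKM in blastocysts and 0 in both fibroblast lines. In later bESC it ranged from 4.07 RPKM in line B at P35 to 32.0 RPKM in line B at P24. AMOTL2, an angiomotin relative that binds YAP1, was higher in P10 bESC than in blastocysts by 3.46 ± 0.23 (adjusted p = 2.95e-05; 2.03 relative to the median gene).

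CYR61 and ANKRD1 are widely used YAP target genes. CYR61 stood at 53.2 and 16.3 RPKM in P10 bESC, 4.83 and 4.58 RPKM in blastocysts and 233 and 343 RPKM in fibroblasts, and was lower in P10 bESC than in fibroblasts by -3.21 ± 0.50 (adjusted p = 0.00199). Its difference of 2.43 ± 0.50 between P10 bESC and blastocysts (adjusted p = 0.00375) was no longer called with quantile (0.97, adjusted p = 0.158) or median-of-ratios scaling (0.79, adjusted p = 0.198). Without line A the CYR61 differences from blastocysts and fibroblasts were 1.60 and -4.03, and without line B they were 3.25 and -2.39. In later bESC CYR61 averaged 179 ± 40.9 RPKM in line A and 271 ± 25.6 RPKM in line B (SD, n = 4 each; adjusted p = 0.734, limma). ANKRD1 stood at 0.416 and 0.355 RPKM in P10 bESC, 0.269 and 0.058 RPKM in blastocysts and 94.4 and 12.3 RPKM in fibroblasts, and was lower in P10 bESC than in fibroblasts by -4.69 ± 0.81 (adjusted p = 0.00302). It passed the filter only through the fibroblast lines, which differed widely, and was not tested with either left out. MOB1A, a coactivator of the LATS kinases, stood at 16.2 and 19.0 RPKM in P10 bESC, 3.48 and 5.88 RPKM in blastocysts and 17.2 and 31.3 RPKM in fibroblasts. Of 16 pathway genes tested, 12 were higher and 2 lower in P10 bESC than in blastocysts, beside 73% and 7.33% of all tested genes, so the share higher was near the background (median 1.64, or 0.22 relative to the median gene). Against fibroblasts 5 were higher and 5 lower in P10 bESC, beside 35.4% and 21.9% of all genes (median -0.31). In blastocysts against fibroblasts 1 was higher and 11 lower, beside 11% and 63.4% (median -1.71).

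Other transcription factors of trophoblast differed in direction from gene to gene. KLF5, needed for mouse trophectoderm, stood at 7.47 and 3.42 RPKM in P10 bESC, 59.4 and 67.8 RPKM in blastocysts and 8.18 and 7.99 RPKM in fibroblasts, and was lower in P10 bESC than in blastocysts by -3.40 ± 0.31 (adjusted p = 8.68e-05, limma). GRHL1, a grainyhead factor of epithelia, stood at 0.429 and 0.306 RPKM in P10 bESC, 18.7 and 17.0 RPKM in blastocysts and 0.138 and 0.074 RPKM in fibroblasts. ARID3A, which is linked to trophectoderm in the mouse, went the other way, with 35.6 and 33.7 RPKM in P10 bESC, 0.798 and 0.634 RPKM in blastocysts and 0.727 and 0.760 RPKM in fibroblasts. It was higher in P10 bESC than in blastocysts by 4.38 ± 0.19 (adjusted p = 1.11e-05; 2.95 relative to the median gene), and held between 30.2 and 40.3 RPKM in later bESC. ETS2, ID2 and FOSL1 were called higher in P10 bESC than in blastocysts (2.09, 1.95 and 0.66), but relative to the median gene these differences were 0.67, 0.52 and -0.77, and no call in that direction was left with quantile or median-of-ratios scaling. The FOSL1 call was also lost without line B (adjusted p = 0.15) or either pool (0.126 and 0.0979). Of 10 such factors tested, 4 passed the filter only through the blastocyst pools (HAND1, ESRRB, GRHL1 and GRHL2) and ARID3A only through P10 bESC, so the counts are a description. Against blastocysts 4 were higher and 5 lower in P10 bESC, beside 73% and 7.33% of all tested genes (median -0.95, or -2.38 relative to the median gene). Against fibroblasts 1 was higher and 2 lower in P10 bESC, beside 35.4% and 21.9% (median -0.20). In blastocysts against fibroblasts 5 were higher and 3 lower, beside 11% and 63.4% (median 0.55, or 1.70 relative to the median gene).

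Among gene products of trophectoderm, SLC34A2, a phosphate transporter, stood at 0 and 0.091 RPKM in P10 bESC, 72.2 and 74.8 RPKM in blastocysts and 0 in both fibroblast lines. ENPEP, a surface peptidase, stood at 0.034 and 0.046 RPKM in P10 bESC, 65.3 and 70.1 RPKM in blastocysts and 0 and 0.014 RPKM in fibroblasts. Neither exceeded 0.1 RPKM in any bESC library. DAB2, an endocytic adaptor, was lower in P10 bESC than in blastocysts by -3.98 ± 0.24 (adjusted p = 2.18e-05, limma) and than in fibroblasts by -3.26 ± 0.24 (adjusted p = 0.000107).

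The simple epithelial keratins KRT8, KRT18 and KRT19 were abundant in bESC in which CDX2 was listed at 0 and GATA3 lay under 1 RPKM. KRT18 stood at 41.9 and 37.9 RPKM in P10 bESC, 414 and 297 RPKM in blastocysts and 0.037 and 0 RPKM in fibroblasts, and ranged from 80.9 RPKM (line A at P13) to 274 RPKM (line B at P46) in later bESC. It was lower in P10 bESC than in blastocysts by -3.11 ± 0.21 (adjusted p = 2.86e-05) and higher than in fibroblasts by 5.33 ± 0.21 (adjusted p = 2.32e-05). KRT8 stood at 115 and 150 RPKM in P10 bESC, 473 and 306 RPKM in blastocysts and 7.99 and 0.306 RPKM in fibroblasts. KRT19 stood at 16.9 and 49.6 RPKM in P10 bESC, 5.85 and 3.42 RPKM in blastocysts and 0.193 and 0 RPKM in fibroblasts, and its call against blastocysts (2.45 ± 0.49, adjusted p = 0.00319) was lost with quantile (adjusted p = 0.136) and median-of-ratios scaling (adjusted p = 0.181), and stood at 3.20 without line A and 1.70 without line B. Of 13 products tested, 5 passed the filter only through the blastocyst pools (AQP3, IFNT, PAG2, SLC34A2 and ENPEP), so here too the counts are a description. Against blastocysts 1 was higher and 8 lower in P10 bESC, beside 73% and 7.33% of all tested genes (median -2.73, or -4.16 relative to the median gene). In P10 bESC against fibroblasts 5 were higher and 1 lower, beside 35.4% and 21.9% (median 0.06). In blastocysts against fibroblasts 12 were higher and 0 lower, beside 11% and 63.4% (median 2.75, or 3.91 relative to the median gene). None of the 4 lists had a gene called in the later-passage fits.

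**Figure D4:**
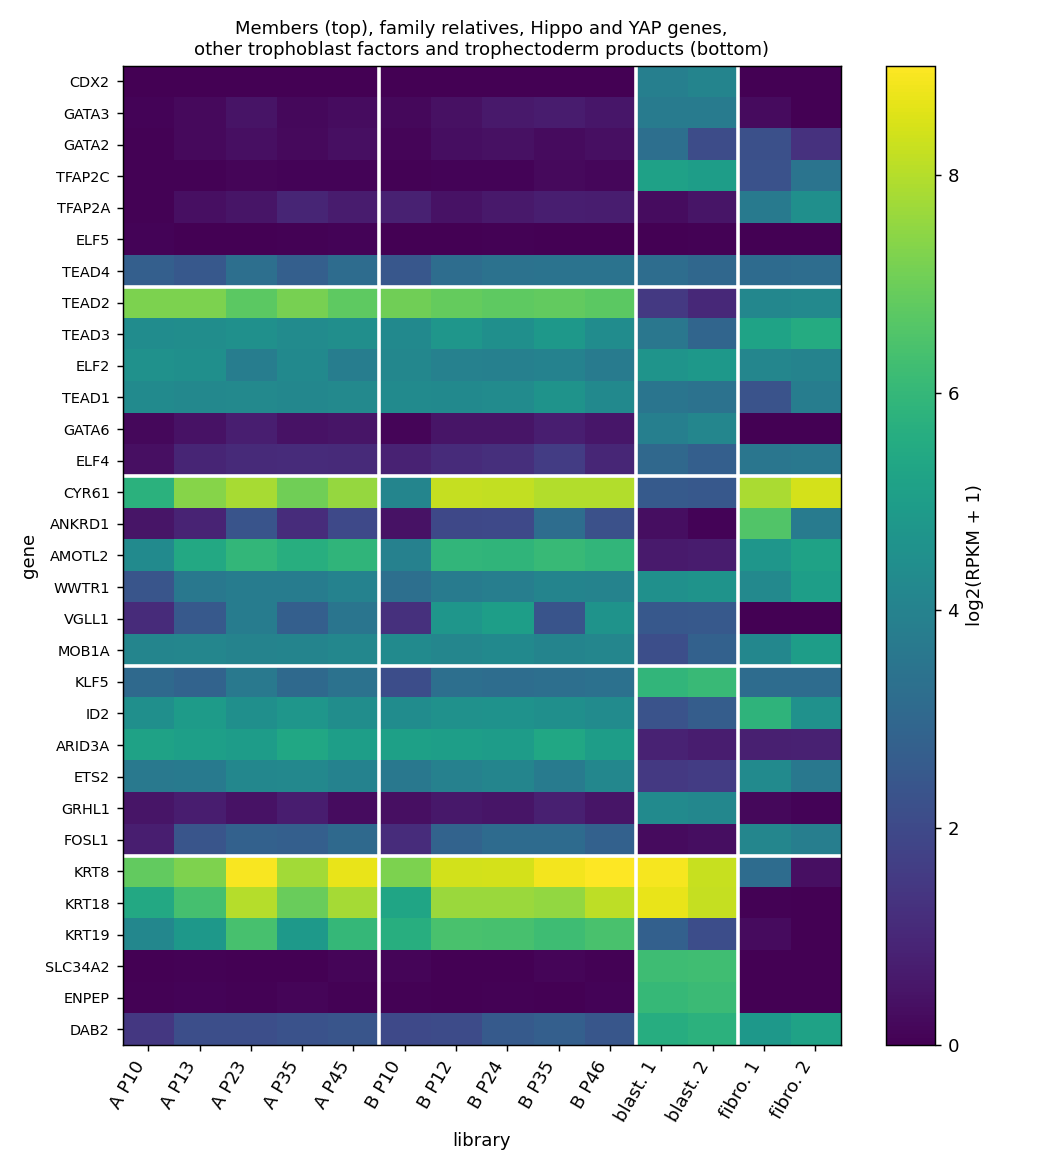
Level as log2(RPKM + 1), by colour, of the 7 genes (top block), then 6 genes each of family relatives, Hippo and YAP genes, other trophoblast factors and trophectoderm products, in the 14 libraries with bESC left of the controls. CDX2, SLC34A2 and ENPEP are bright in the blastocyst columns alone, TEAD2 and ARID3A are brightest in bESC, and the keratins KRT8 and KRT18 are bright in both bESC and blastocysts.

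Among 6252 genes with a name shared by both sets and at least 10 RPKM somewhere, the genes whose log2(RPKM + 1) ran most like each of the 7 over the 14 libraries were found by Pearson's r. This is a description, since the points share libraries and fall into few groups. Nearest to CDX2 were DPPA2 (r = 1), TRIML2 (0.9999) and MPZL2 (0.9998), which averaged 10.9, 27.1 and 124 RPKM in blastocysts. Nearest to GATA3 were AQP3 (0.995), ATP6V0A4 (0.9933) and FAM151A (0.9932), of which AQP3, a water and glycerol channel, averaged 17.7 RPKM in blastocysts and 0.146 to 0.538 RPKM in later bESC. For TFAP2C they were XPNPEP2 (0.997), PLS1 (0.9904) and MANBA (0.9901), and for TFAP2A, which followed the fibroblasts, ENTPD1 (0.9925), MASP1 (0.9906) and ITGA1 (0.9906). GATA2, TEAD4 and ELF5 did not reach 10 RPKM and were not matched.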

How the data were processed

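Total RNA was extracted with the RNeasy kit and made into libraries with the TruSeq RNA kit, per the labels' protocols. The authors deposited RPKM values per gene for each of 14 samples; UMD3.1 and edgeR are named in the submitters' processing notes without version or role, while the aligner, and the total behind each RPKM, are not stated there. Sample and group came from the titles. From the first set, 26 unreadable, 25 date-like and 21 blank features of 23231 were left out.

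The 7 genes, the lists and the tests were chosen with earlier results of these data known. limma 3.58.1 (R 4.3.3, empirical Bayes with trend, two-sided) was fitted to log2(RPKM + 1), which understates changes of low genes. It took genes at 1 RPKM or more in at least 2 libraries, once over the 6 libraries of the first set and once over the 8 later ones (line and passage as terms). The fit was tested on simulated data with the same spread for every gene and changes in abundant genes only. That test does not cover low genes such as most of the 7. P-values were adjusted by Benjamini-Hochberg over all genes tested, with a threshold of 0.05. Labels do not say that samples came from separate animals or cultures, so p-values measure the spread between these libraries. In the 4 matched stages the deviations of line A and line B libraries from their line means had correlations of 0.166, 0.101, 0.291 and 0.572. The stages were also used as a block. From each other list up to 6 called genes with the highest single-library RPKM were named, and for each of the 7 genes reaching 10 RPKM the 3 most similar genes. Alternatives were pseudocounts of 0.1 and 0.5, no filter or a stricter one of 5 RPKM, 3 other scalings, blocks and leaving out libraries. Gene names matched RefSeq symbols for all 7 genes; sequences and coordinates were not used here.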

Additional observations from a re-analysis of the deposited data

Results flagged for a closer look

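In groups of 4 later bESC libraries, 4 of 60 sets of 4 values had 1 library standing far from the other 3 by Dixon's ratio, and chance gives about 1 in 20. ELF5 in line B at P24 was 0.0488 RPKM while the other 3 line B libraries were listed at 0. With 3 values at 0 the ratio is 1 for any other value, so this flag carries no information. GATA6 in line B at P35 was 0.684 RPKM against 0.408 to 0.453 RPKM in the others. ANKRD1 in the same library was 8.21 RPKM against 2.85 to 3.66 RPKM. KRT18 in line B at P46 was 274 RPKM against 188 to 202 RPKM.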

How the results depend on the processing

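In P10 bESC against blastocysts, TFAP2C kept its direction and call under 15 of 15 alternatives and GATA2 under 14 of 14. CDX2 and GATA3 did so under the 13 that tested them. In the main fit both passed the filter only through the blastocyst pools, so that count supports no further statement. Without either pool they missed the filter and were not tested, and TFAP2A likewise missed it without either fibroblast line. Counts of the 7 genes with those libraries left out therefore rest on fewer tested genes. Leaving out 1 library left 10768 to 11471 genes tested in the first set. Among single genes, 990 of the recomputed values kept direction and were called, or not called, as in the main fit. Another 80 lost the call, 6 gained one and 24 turned direction. Genes other than the 7 were included only where the main fit called them. Settings in which a gene missed the filter were not counted. With quantile, median-of-ratios and top-2-removed scaling, the genes called higher and lower were 3508 and 3546, 4050 and 3495, and 5149 and 2609 for P10 bESC against blastocysts. For blastocysts against fibroblasts they were 3861 and 3580 of 11761 genes tested, 3731 and 4176 of 11554, and 3777 and 4071 of 11808. Of the 7 genes 6 were tested there, and 5 were called higher in each. The median gene differed by -0.01, 0.11 and 0.47 under the 3 scalings between P10 bESC and blastocysts, against 1.43 as fitted.

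Leaving out 1 library gave 433 to 882 genes lower in P10 bESC than in blastocysts, with 2 to 4 of the 7 genes. Against fibroblasts it gave 2426 to 3901 higher and 1691 to 2413 lower, with 1 to 3 of the 7 genes. In blastocysts against fibroblasts it gave 737 to 1271 higher, with 1 to 4 of the 7 genes higher and 0 to 1 lower. Line A against line B gave 0 to 5 genes and the passage slope 0 to 2. Line A against line B also gave 5 genes with pseudocount 0.1, 4 with 0.5, 0 with no filter, 7 with no filter and pseudocount 0.1, 1 with quantile or median-of-ratios scaling, 0 without line A at P13 and P35, and 5 with the replicate block of matched stages. The letters A and B are shared by P10, blastocyst and fibroblast samples. The A minus B differences of P10 correlated at -0.079 with those of blastocysts and at -0.099 with those of fibroblasts. Between blastocysts and fibroblasts the correlation was 0.187. These values cannot decide whether samples with the same letter were linked. With the letter as a replicate block TEAD4 lost both P10 calls, and GATA2 gained a call between blastocysts and fibroblasts (adjusted p = 0.0443, limma).

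TFAP2A in P10 bESC against blastocysts turned to -0.22 (pseudocount 0.1, with or without the filter), -1.23 (quantile, adjusted p = 0.0107), -0.46 (median-of-ratios), -0.39 (top 2 removed) and between -0.34 and 0.41 without 1 library, with -0.07 without blastocyst pool 1. TEAD3 there turned to -0.38, -0.62 and -0.22 under the 3 scalings, and FOSL1 to -0.80 with quantile scaling. GATA3 in P10 bESC against fibroblasts turned to -0.18 (quantile), -0.01 (median-of-ratios) and between -0.11 and 0.14 without 1 library, with -0.03 without line B. In blastocysts against fibroblasts TEAD4 turned to 1.28, 1.34 and 1.39 and ELF4 to 0.69, 0.72 and 0.76 under the 3 scalings, and TEAD4 lay between -0.18 and 0.05 without 1 library. The TEAD4 slope difference lay between -0.11 and 0.15 without 1 library and was -0.10 without line A at P13 and P35. Apart from the filter on CDX2, GATA3 and TFAP2A, the cause of these changes was not tested.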

Other observations

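P10 and later bESC libraries come from different sets of files, so passage and file set cannot be told apart in the levels below. CDX4, a relative of CDX2, was listed at 0 in P10 bESC, blastocysts and fibroblasts, while in later bESC it stood at 0.134 to 0.798 RPKM. EOMES, a T-box factor of trophoblast stem cells and of mesendoderm in the mouse, stood at 0.062 and 0.050 RPKM in P10 bESC, 0.151 and 0 RPKM in blastocysts and 0 in both fibroblast lines, and at 0.193 to 0.714 RPKM in later bESC. The interferon tau gene IFNT, the pregnancy recognition signal of cattle, was listed at 0 in P10 bESC, at 3.16 and 2.95 RPKM in blastocysts and at 0 in fibroblasts. ESRRB stood at 0.077 and 0.309 RPKM in P10 bESC, 9.54 and 8.78 RPKM in blastocysts and 0 in fibroblasts. In later bESC it ranged from 0.359 RPKM (line A at P13) to 1.9 RPKM (line B at P12).

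The 3 later libraries lowest for GATA2 (line A at P13 and P35, line B at P35) were also the 3 lowest for VGLL1, CDX4, ELF3, EOMES, ESRRB, PPARG, KRT7, KRT18, AQP3, DSC2 and the neural crest marker FOXD3, a pattern picked out after the values were seen. The same 3 lowest libraries were found for 4 of 14 trophectoderm products (28.6%), 3 of 16 other trophoblast factors (18.8%) and 1 of 6 neural crest and melanocyte markers (16.7%). They were also found for 2 of 13 family relatives (15.4%), 1 of 17 Hippo and YAP genes (5.88%) and none of the other 5 marker lists. Of the 12785 genes tested in the later libraries, 939 had them (7.34%). The lists include genes that missed the filter on low values, among them CDX4, EOMES, PPARG and AQP3, and the 12785 genes do not. The shares therefore compare unlike sets of genes.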
